A study of Rattus norvegicus with 6 samples.

Results

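The spliceosome and hnRNP genes of rat neural stem/progenitor cells (NSPCs) were described on 3 carbon films of different electrical conductivity. They are every row of the count tables whose gene symbol starts with Hnrnp, Srsf, Snrp, Sf3a or Sf3b, a rule that reads no measured value. This gave 49 of the 17048 rows, each symbol on 1 row, in 4 classes. There were 18 hnRNP genes (Hnrnp), 11 genes of SR proteins (Srsf), 11 snRNP genes (Snrp) and 9 genes of the SF3a and SF3b complexes (Sf3a and Sf3b). Of these, 48 had enough counts to be tested among 7729 rows, and Srsf12 had 0 counts in all 6 libraries.

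The study asked how the conductivity of a growth surface bears on the transcriptome of NSPCs, multipotent precursors of the neurons, astrocytes and oligodendrocytes of the brain. The cells were wild-type and came from the telencephalon of mid-gestation Sprague-Dawley embryos. They were kept for 24 h in medium that maintains stemness, on a highly ("High"), intermediately ("Medium") or weakly ("Low") conductive film, with 2 libraries for each film. All 3 groups were therefore grown on carbon, and none was grown on a surface without it. Nothing in the labels says whether the 2 libraries of a film came from separate cultures, so the p-values measure the spread between these libraries, which may be technical. No label names a batch, so a film and the preparation of its 2 libraries cannot be told apart.

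Splicing removes introns from pre-mRNA and is carried out by the spliceosome, which assembles on each intron from small nuclear ribonucleoproteins (snRNPs). Each of the U1, U2, U4 and U5 snRNPs carries a ring of Sm proteins around its small nuclear RNA, and SF3a and SF3b are the parts of the U2 snRNP that hold it at the branch point. SR proteins bind exons and mostly favour their inclusion, whereas hnRNP proteins coat nascent transcripts and often repress nearby splice sites, so that the balance between them sets which exons are kept. In the developing brain this balance shifts as progenitors become neurons.

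The assay was QuantSeq, which starts cDNA synthesis on the poly(A) tail and counts reads at the 3′ end of transcripts, and so measures how much of each mRNA is present and nothing about how it was spliced. Total counts ran from 5124863 to 6213676 per library, and 45 to 48 of the 49 genes had a count in each. Ribosomal RNA took 26.1% and 38.4% of the counts on High, 7.27% and 13% on Medium, and 7.16% and 7.64% on Low. The summed level of 7 NSPC markers, of which Hes5 was at 0, was 2543 to 2775 CPM (counts scaled to a common library total) on High and 3627 to 4675 in the other 4 libraries, while 8 neuronal markers summed to at most 33.8 CPM and Rbfox3, Neurod1 and Syt1 were at 0. Glial lists summed to 201 to 420.2 CPM for astrocytes (Aqp4 and Aldh1l1 at 0) and 324 to 745 for the oligodendrocyte lineage (Sox10 at 0), and microglial markers to at most 7.07 (Itgam, Tmem119, Csf1r and Cx3cr1 at 0). Medium replicate 2 stood apart in the meningeal and vascular list, with 390.2 CPM against at most 35.6 elsewhere, from Col1a1 and Col3a1, while Pecam1, Cldn5, Pdgfrb, Cdh5, Dcn and Lum were at 0. What part these differences have in the results was not tested, except that leaving out the ribosomal RNA rows gave the same numbers of splicing genes past the adjusted and unadjusted thresholds used here. In such bulk samples, fewer cells of a type and less RNA per cell cannot be told apart.

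No splicing gene passed the test in any comparison. With edgeR's quasi-likelihood test and Benjamini-Hochberg adjustment over all 7729 rows, 0 of the 48 passed an adjusted p of 0.05 in 4 comparisons, namely of Low and of Medium with High, of Low with Medium, and of averaged Low and Medium with High. Over all rows 0.0518%, 0.0129%, 0% and 0.129% were called in the same order, so few rows of any kind passed. By DESeq2 the counts of splicing genes were 1, 3, 0 and 2, from the genes Snrpd1, Srsf1 and Sf3b6, and by limma-voom 0 in all 4. In the same order DESeq2 called 3.88%, 3.97%, 1.5% and 4.85% of all rows, and limma-voom 0.207%, 0.181%, 0% and 0.298%. The lowest adjusted p by edgeR were 0.899, 0.314, 1 and 0.353, with Snrpd1 the gene behind the value in Medium against High and in the mean of both films. The fitted coefficient of biological variation between libraries of a film was 1.43 over all rows.

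At an unadjusted p under 0.05 by edgeR, 3 of 48 (6.25%) were past the threshold in Low against High, all higher in Low, where 4.27% of all rows were past it and 2.56% were higher. The number was 5 (10.4%) in Medium against High, all higher in Medium, beside 4.04% of all rows in either direction and 2.39% higher, and 0 in Low against Medium, beside 1.51%. With Low and Medium averaged against High it was 7 (14.6%), beside 5.50% of all rows. Of these 7, the genes Snrpd1, Snrpe, Srsf1, Hnrnpk, Hnrnpu and Sf3b6 were higher in Low and Medium, and Sf3b1 was lower, where 2.69% of all rows were higher and 2.81% lower. Rows with more counts were past this threshold more often. Among rows with a mean of at least 100 CPM, 14.0% were past it in the last comparison, beside 7 of 33 splicing genes (21.2%), and the share was 12.5% beside 9.09% in Low against High 11.1% beside 15.2% in Medium against High, and 2.44% beside 0 genes in Low against Medium. Each gene and comparison past the unadjusted threshold makes 1 of 15 values, and 13 of these were no longer past it in at least 1 refit with another setting or without 1 library. The 2 that stayed past it in every refit were those of Snrpd1 in Medium against High and in averaged Low and Medium. The comparisons of Low and of Medium with High share the High libraries, so their values are given side by side and are not 2 independent results.

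Both Low libraries were above both High libraries in 14 of the 48 genes and below in 7, beside 1500 and 1393 of 7729 rows. For Medium against High the numbers were 15 and 6 genes, beside 1253 and 1437 rows. For Low against Medium they were 7 and 10 genes, beside 1262 and 976 rows. In 10 of the 48 genes (20.8%) the other 4 libraries all lay on the same side of both High libraries, as in 18.2% of all rows. The other 4 were above High in 7 genes and below in 3, beside 8.06% and 10.1% of all rows. Among rows of at least 100 CPM the shares were 27.3% of the splicing genes and 27.5% of the rows. The 7 above were the 6 genes named above and Hnrnpd, and the 3 below were Sf3b1, Srsf11 and Srsf4. A share near that of all rows is no result about splicing genes as a whole. The heatmap of the 48 genes by library shows how differently single genes behaved.

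**Figure D1:**
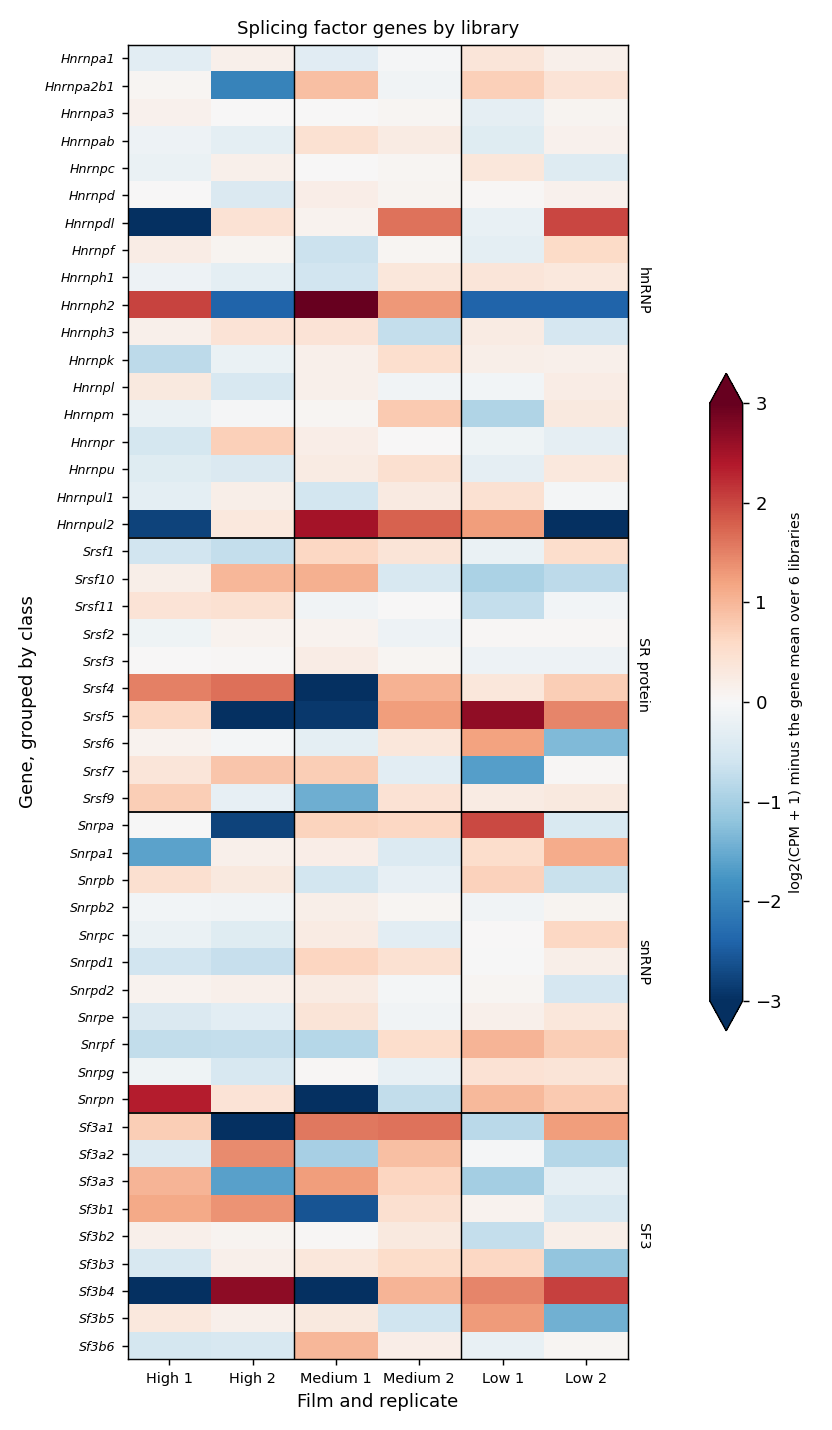
Level of each of the 48 tested genes in each of the 6 libraries, as log2(CPM + 1) minus the mean of the gene over the 6 libraries (colour, red above and blue below the mean, limited to 3 either way), with genes grouped by class. Many genes have both colours within a film. For 10 of the 48 genes the Low and Medium libraries all lie on the same side of both High libraries.

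Of the 4 classes, the snRNP genes had the largest ratio of summed level to High. The 11 genes summed to 2951 and 2831 CPM on High, 4371 and 3621 on Medium, and 4057 and 4095 on Low, after scaling of the libraries with TMM. All 4 Low and Medium libraries were above both High libraries, with group means of 2891 ± 85 (High), 3996 ± 531 (Medium) and 4076 ± 26.2 (Low) (SD over the 2 libraries of a film, as in all group values here). The ratio of means was 1.41 for Low to High and 1.38 for Medium to High. A two-sided exact permutation test of 4 libraries against 2 has a smallest p of 0.133, so that test could not pass 0.05. The sums are given without a test. Without Snrpd1 and Snrpe the remaining 9 genes summed to 1723 and 1599 CPM on High, 1906 and 1653 on Medium, and 2240.5 and 2029 on Low. Low still lay above High and Medium there, and Medium overlapped High.

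The hnRNP class showed a smaller difference in the same direction. Its 18 genes summed to 6849 and 6941 CPM on High, 7798 and 8563 on Medium, and 7334 and 8252 on Low, a ratio of means of 1.13 for Low and 1.19 for Medium to High. Without Hnrnpk and Hnrnpu the sums were 6015 and 5975, 6403 and 6875, and 6165 and 6823 CPM, and all 4 Low and Medium libraries were still above both High libraries. The SR protein class did not separate Medium from High. It summed to 2349 and 2432 CPM on High, 2458 and 2332 on Medium, and 2142 and 2275 on Low, where both Low libraries were below the others. Srsf1 was higher in Low and Medium, so leaving it out by itself lowers the sums of those films relative to High. Without Srsf1 the SR sums of the 3 films did not overlap. These were 2128 and 2232 CPM on High, 1951 and 1899.7 on Medium, and 1856 and 1801 on Low. The SF3 class summed to 1814 and 2067 CPM on High, 1827 and 2073 on Medium, and 1423 and 1484 on Low, so that Low was below both other films by a ratio of 0.75. The SF3 difference rested in part on Sf3b1, without which High (1236 and 1394 CPM) and Low (1137 and 1296 CPM) overlapped and Medium (1783 and 1707 CPM) was above both.

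**Figure D2:**
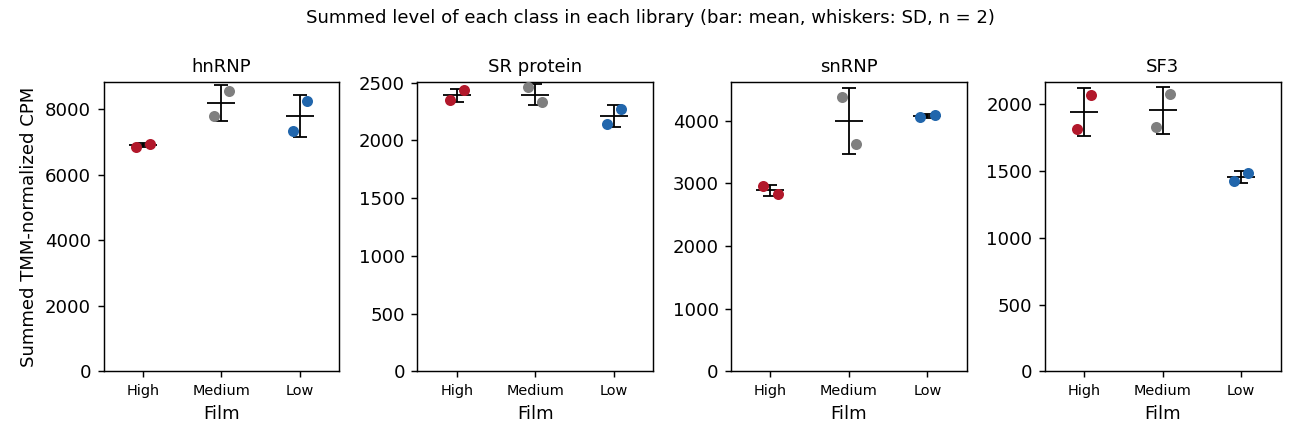
Summed normalised CPM of the genes of each class in each library (points, replicate 1 left and replicate 2 right), with the mean (bar) and SD over the 2 libraries of a film (whiskers). The snRNP sums of the 4 Low and Medium libraries, 3621 to 4371 CPM, lie above those of High, 2831 and 2951 CPM, while the SR protein sums of High and Medium overlap.

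Medians over the genes of a class can be read beside the median of all rows. With Low and Medium averaged against High, the median log2 fold change was 0.46 for the 11 snRNP genes, 0.18 for the 18 hnRNP genes, -0.05 for the 9 SF3 genes and -0.16 for the 10 SR protein genes tested, beside -0.12 for all 7729 rows. Scaling by library sizes alone raised the median of all rows by 0.38, and moved that of SR proteins to 0.21 and that of SF3 genes to 0.29, so those signs depend on the scaling. Relative to all rows in the same fit the snRNP median was 0.58 higher with TMM and 0.59 higher with library sizes alone, and the hnRNP median 0.30 and 0.32 higher. Of the snRNP genes 8 of 11 were higher than in High, of the hnRNP genes 13 of 18, of the SR genes 4 of 10 and of the SF3 genes 3 of 9, beside 45.9% of all rows. In the same comparison, rows of at least 100 CPM had a median of 0.06, and 53.7% of them were higher. Splicing genes of that level had a median of 0.11, and 63.6% were higher. The class medians carry no test and only describe the classes.

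Snrpd1 encodes SmD1, a subunit of the Sm ring. It was counted at 564 and 517 CPM on High, 1308 and 1144 on Medium, and 828 and 947 on Low. The films did not overlap for this gene, with Medium highest and High lowest. In the mean of Low and Medium its level was 1.93-fold that of High, a log2 fold change of 0.95 ± 0.23 (SE, 95% interval 0.44 to 1.45) with an unadjusted p of 0.00192 and an adjusted p of 0.353 by edgeR. Medium was 2.27-fold above High, with a log2 fold change of 1.18 ± 0.25 and an adjusted p of 0.314 by edgeR, and Low 1.64-fold, with 0.71 ± 0.25 and an adjusted p of 0.899. By DESeq2 the adjusted p for Medium against High was 6.21e-07. By edgeR it was 0.0208 when Low replicate 1 was left out of the fit, 0.0213 without Low replicate 2 and 0.0352 without a filter on low counts.

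Snrpe encodes SmE, another Sm ring subunit. It was counted at 663 and 715 CPM on High, 1157 and 824 on Medium, and 989 and 1119 on Low. Each Low and Medium library was above both High libraries, and Low and Medium overlapped. The mean of Low and Medium was 1.48-fold High, a log2 fold change of 0.57 ± 0.24 (SE, 95% interval 0.04 to 1.10), with an adjusted p of 0.801 by edgeR. Its unadjusted p of 0.038 became 0.163 without High replicate 1, 0.0968 without High replicate 2, 0.137 without Medium replicate 1 and 0.0661 without Low replicate 2.

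The other Sm genes had other patterns. Snrpg, which encodes SmG, was at 297 and 232 CPM on High, 332 and 277 on Medium, and 441 and 422 on Low. Only its Low libraries were apart from both other films, with a log2 fold change of Low against High of 0.70 ± 0.36 and an adjusted p of 0.899 by edgeR. Snrpd2, which encodes SmD2, the partner of SmD1 in the ring, was at 474 and 489 CPM on High, 525 and 426 on Medium, and 456 and 311 on Low. Its level in the mean of Low and Medium differed from High by a log2 fold change of -0.17 ± 0.29 (95% interval -0.81 to 0.47). Whether Snrpd1 and Snrpd2 differ in this was not tested. Snrpb and Snrpn encode closely related SmB and SmN proteins, and since reads that align to several places were counted, their split is uncertain.

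Snrpc encodes U1-C, which helps the U1 snRNP to recognise the 5′ splice site. It was at 276 and 247 CPM on High, 379.9 and 255 on Medium, and 321 and 492 on Low. Both Low libraries were above High and Medium overlapped both. The log2 fold change of Low against High was 0.64 ± 0.39, with an adjusted p of 0.899 by edgeR. The 6 other snRNP genes (Snrpa, Snrpa1, Snrpb, Snrpb2, Snrpf and Snrpn) were at 0 to 339 CPM, with log2 fold changes of averaged Low and Medium against High from -2.20 to 1.79, and none had an unadjusted p under 0.05.

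Among the hnRNP genes, Hnrnpk and Hnrnpu had the lowest p. Hnrnpk encodes a protein that binds poly(C) stretches of RNA and DNA. It was counted at 315 and 471 CPM on High, 602 and 761 on Medium, and 613 and 596 on Low. All Low and Medium libraries were above both High libraries, and the 2 High libraries differed from each other about as much as High replicate 2 did from Low. The log2 fold change of the mean of Low and Medium was 0.71 ± 0.28 (95% interval 0.08 to 1.34), with an adjusted p of 0.801 by edgeR. Without High replicate 1 the log2 fold change was 0.45, with an unadjusted p of 0.287, and without Medium replicate 2 it was 0.60, with an unadjusted p of 0.0786.

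Hnrnpu encodes a protein of the nuclear scaffold, also known as SAF-A. It was counted at 519.6 and 495 CPM on High, 792 and 927 on Medium, and 556 and 834 on Low. Both other films lay above High, and Low replicate 1 was close to it. The log2 fold change was 0.76 ± 0.30 for Medium against High and 0.45 ± 0.29 for Low against High, with adjusted p of 0.908 and 0.899 by edgeR. The unadjusted p of 0.028 for Medium against High became 0.0702 without High replicate 1, 0.0984 without High replicate 2 and 0.127 without Medium replicate 2.

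Hnrnpa2b1 encodes a reader of RNA targeting signals that also takes part in mRNA transport in neural cells. It was at 50.1 and 11.2 CPM on High, 91.1 and 44.6 on Medium, and 78.9 and 64.5 on Low. Its counts, 47 to 547 per library, were low beside those of Hnrnpa1 and Hnrnpa3. Whether its 3′ end is in the counted gene model could not be checked here. Both Low libraries were above both High libraries, whereas Medium replicate 2 was below High replicate 1. The mean of Low and Medium was 2.28-fold High, but the log2 fold change of 1.19 had an SE of 1.25 and a 95% interval from -1.60 to 3.98, with an adjusted p of 0.955 by edgeR.

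Hnrnpa1 and Hnrnpa3, which encode relatives of this protein, had log2 fold changes close to 0 for averaged Low and Medium against High. For Hnrnpa1 the values were 0.32 ± 0.29 for Low against High, -0.12 ± 0.29 for Medium against High and 0.45 ± 0.29 for Low against Medium. Hnrnpa1 was at 606 and 843 CPM on High, 594 and 735 on Medium, and 971 and 839 on Low. Hnrnpa3 was at 1331 and 1245 CPM on High, 1233 and 1268 on Medium, and 1009.5 and 1304 on Low. The films overlapped for both genes except that Low was above Medium in Hnrnpa1, and the log2 fold changes of the mean of Low and Medium were 0.10 (95% interval -0.45 to 0.65) and -0.10 (-0.56 to 0.36). Both genes are known for many processed pseudogenes, so their counts from multiple alignments are uncertain.

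Hnrnpab, whose protein binds RNA and single-stranded DNA, had its highest values in Medium. It was at 694 and 635 CPM on High, 1075 and 914 on Medium, and 599.8 and 844 on Low. Medium lay above both other films, which overlapped, with a log2 fold change of 0.58 ± 0.28 for Medium against High and an adjusted p of 0.908 by edgeR. Hnrnpl, which binds CA repeats, was at 711 and 419 CPM on High, 648 and 539 on Medium, and 553 and 686 on Low, with overlap of all films and a log2 fold change of 0.10 ± 0.29. The other 11 hnRNP genes ran from 0 to 761 CPM, and none had an unadjusted p under 0.05.

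**Figure D3:**
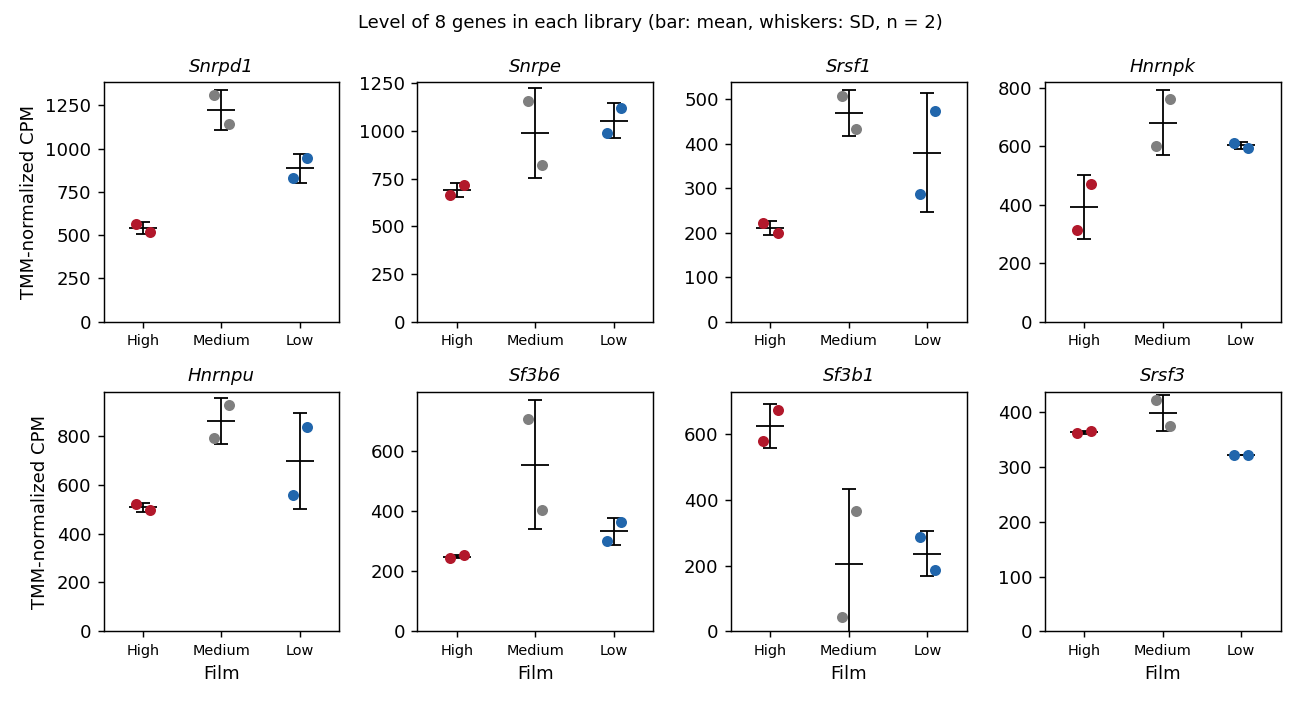
Normalised CPM of Snrpd1, Snrpe, Srsf1, Hnrnpk, Hnrnpu, Sf3b6, Sf3b1 and Srsf3 in each library (points, replicate 1 left and replicate 2 right), with the mean (bar) and SD over the 2 libraries of a film (whiskers, cut at 0). In the first 6 panels all 4 Low and Medium libraries lie above both High libraries, in Sf3b1 all 4 lie below, and in Srsf3 Medium lies above and Low below High.

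Srsf1 had the lowest p of the SR protein genes for averaged Low and Medium against High, though not the largest fold. It encodes SF2/ASF, which promotes the use of weak splice sites next to its exonic binding sites. It was counted at 221 and 200 CPM on High, 506 and 432 on Medium, and 286 and 474 on Low. Every Low and Medium library was above both High libraries, and the 2 Low libraries differed more than those of either other film. The mean of Low and Medium was 2.01-fold High, with a log2 fold change of 1.0 ± 0.34 (95% interval 0.25 to 1.76), an unadjusted p of 0.0144 and an adjusted p of 0.778 by edgeR. The adjusted p by DESeq2 was 0.029. Without High replicate 2 the unadjusted p by edgeR was 0.0745, and without Low replicate 2 it was 0.06.

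Srsf3 encodes the smallest SR protein, which also takes part in mRNA export. It was at 361 and 365 CPM on High, 421 and 375 on Medium, and 321 in each Low library. Medium was above High and Low below it without overlap, over a narrow range. Low against Medium had a log2 fold change of -0.31 ± 0.33 (95% interval -1.05 to 0.43) and an unadjusted p of 0.374 by edgeR. For averaged Low and Medium against High the value was -0.02, with a 95% interval from -0.66 to 0.62.

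Lower values in Low and Medium were found for Srsf11 and Srsf4, which stood on the other side of High from Srsf1. Srsf11, whose SR-like protein is also known as p54, was at 288 and 296 CPM on High, 201 and 218 on Medium, and 131 and 204 on Low. Its log2 fold change in the mean of Low and Medium was -0.64 ± 0.39, with an adjusted p of 0.801 by edgeR. Srsf4, which encodes SRp75, was at 112 and 123 CPM on High, 0 and 79.9 on Medium, and 49.2 and 65.2 on Low. Both genes had no overlap with High, but Srsf4 had 0 counts in Medium replicate 1 beside 489 counts in Medium replicate 2, and its log2 fold change of -1.30 had an SE of 1.57.

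Srsf7, whose protein 9G8 is like that of Srsf3, was at 251 and 349 CPM on High, 327 and 157 on Medium, and 62.2 and 202 on Low. Both Low libraries were below both High libraries and Medium overlapped both films, with a log2 fold change of -1.18 ± 0.64 for Low against High and an adjusted p of 0.899 by edgeR. Srsf2, which encodes SC35, a protein of nuclear speckles, had nearly equal group means of 672 ± 80.0 CPM on High, 669 ± 81.3 on Medium and 695 ± 2.26 on Low. Its log2 fold change for the mean of Low and Medium was 0.02 ± 0.23, with a 95% interval from -0.50 to 0.54. The other 4 SR genes tested were at 0 to 313 CPM, with log2 fold changes from -0.85 to 1.67 for averaged Low and Medium against High, and none had an unadjusted p under 0.05.

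Sf3b1 and Sf3b6, genes of the SF3b complex at the branch point, had values in opposite directions. Sf3b1 encodes the large scaffold subunit of SF3b, which holds the branch point region of the intron. It was counted at 578 and 673 CPM on High, 43.2 and 366 on Medium, and 286 and 188 on Low. Each Low and Medium library was below both High libraries, and the 2 Medium libraries differed more from each other than Medium replicate 2 did from High. The log2 fold change of the mean of Low and Medium was -1.50 ± 0.61 (95% interval -2.87 to -0.14), with an unadjusted p of 0.0336 and an adjusted p of 0.801 by edgeR. The size of this value rested on 1 library, since without Medium replicate 1 it was -1.08 with an adjusted p of 0.297 by edgeR, and without Medium replicate 2 it was -2.64 with an adjusted p of 0.000313. By the same test it was also past the threshold without Low replicate 1 (adjusted p = 0.00739), without Low replicate 2 (adjusted p = 0.0428) and without a filter on low counts (adjusted p = 0.0158). By DESeq2 the unadjusted p was 0.0922 and the adjusted p 0.443, and with library sizes alone the unadjusted p was 0.0825 by edgeR.

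Sf3b6 encodes p14, the small SF3b subunit that sits at the branch adenosine and binds the SF3b1 protein. It was at 244 and 253 CPM on High, 705 and 402 on Medium, and 299.6 and 364 on Low. The films did not overlap, with High lowest and Medium highest, although the 2 Medium libraries were far apart. Medium against High had a log2 fold change of 1.15 ± 0.38 (95% interval 0.30 to 2.0), an unadjusted p of 0.0128 and an adjusted p of 0.843 by edgeR, and an adjusted p of 0.0484 by DESeq2. Without Medium replicate 1 the log2 fold change was 0.69, with an unadjusted p of 0.166 by edgeR. Low against High had 0.42 ± 0.38 with an adjusted p of 1 by edgeR.

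Sf3b2, the subunit SF3b145, was at 605 and 574 CPM on High, 561 and 669 on Medium, and 329.8 and 612 on Low. Its films overlapped, and its log2 fold change in the mean of Low and Medium was -0.13 ± 0.30. The other 6 SF3 genes were counted at 0 to 253 CPM, with log2 fold changes from -0.84 to 1.35 in the same comparison, and none had an unadjusted p under 0.05.

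The short motif CCGGAAG was found before the starts of several of these genes, whichever way their levels differed between films. Of the genes named here, Snrpd1, Snrpe, Sf3b6, Snrpg, Srsf11, Srsf4 and Srsf7 had it in the 250 bases before the start, and the last 3 had lower values in Low than in High. The promoters printed here are the 100 bases before the annotated gene start in RefSeq (build GRCr8, not the build of the count tables), printed 5′ to 3′ on the strand of the gene. They are shown for the snRNP and SF3 genes with an unadjusted p under 0.05 and for Srsf1, the SR gene past that threshold. The hnRNP genes past it, Hnrnpk and Hnrnpu, are not printed, and neither is among the genes listed above with the motif. Capitals mark the letters CCGGAAG, a core of the sites of ETS-type transcription factors, or their reverse complement CTTCCGG.
Snrpd1, chr18:1969574-1969673, plus strand: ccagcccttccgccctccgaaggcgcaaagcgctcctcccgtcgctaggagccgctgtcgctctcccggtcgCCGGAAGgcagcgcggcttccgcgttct
Snrpe, chr13:47609252-47609351, minus strand: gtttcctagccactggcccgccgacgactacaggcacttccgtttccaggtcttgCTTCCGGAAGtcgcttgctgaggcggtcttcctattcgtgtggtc
Sf3b6, chr6:33545395-33545494, plus strand: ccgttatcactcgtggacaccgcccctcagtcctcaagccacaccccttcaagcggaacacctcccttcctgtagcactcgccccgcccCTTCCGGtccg
Srsf1, chr10:73336398-73336497, plus strand: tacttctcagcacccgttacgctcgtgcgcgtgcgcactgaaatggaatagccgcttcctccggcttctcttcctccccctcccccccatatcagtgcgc
Sf3b1, chr9:64026720-64026819, minus strand: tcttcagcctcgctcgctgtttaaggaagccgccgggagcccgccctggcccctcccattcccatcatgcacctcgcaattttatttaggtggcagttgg

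The match starts at position -28 in Snrpd1 and at -11 in Sf3b6, counted from the gene start. Snrpe has 2 overlapping matches, 1 on each strand, at -45 and -42, whereas Srsf1 and Sf3b1 have none in these bases. In the 250 bases before the start, on either strand, the motif was in 16 of the 52 windows (30.8%) of the 48 splicing genes with a RefSeq promoter, and in 9.01% of 21851 windows of 19005 protein-coding genes. By class it was in 5 of 11 snRNP windows, 3 of 8 SF3 windows, 4 of 21 hnRNP windows and 4 of 12 SR windows. The windows of the splicing genes also held the CCAAT box (CCAAT, 50% against 35.0%) and the GC box (GGGCGG, 57.7% against 38.9%) more often, with the E-box (CACGTG) in 9.62% against 6.16% and the TATA box (TATAAA) in 13.5% against 12.1%. These are shares of letters and not of bound sites, and genes with several starts have more than 1 window.

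Genes were also counted by fold and level, without a test, by a rule modelled on the cutoffs the study gives. With 1 added to each CPM, a ratio of group means of 1.5 or more, and a mean log2 level of 2 or more in whichever group had more, 14 of the 48 splicing genes were higher in Low than in High (29.2%) and 9 lower (18.8%), where 30.6% and 30.1% of all rows were. Medium had 14 higher and 5 lower than High, beside 27.9% and 32.8% of all rows. In Low against Medium the numbers were 5 higher and 9 lower, beside 29.8% and 24.5%. Of the 11 snRNP genes, Low had 7 above High and 1 below by this rule, and Medium had 3 above and 2 below.

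**Figure D4:**
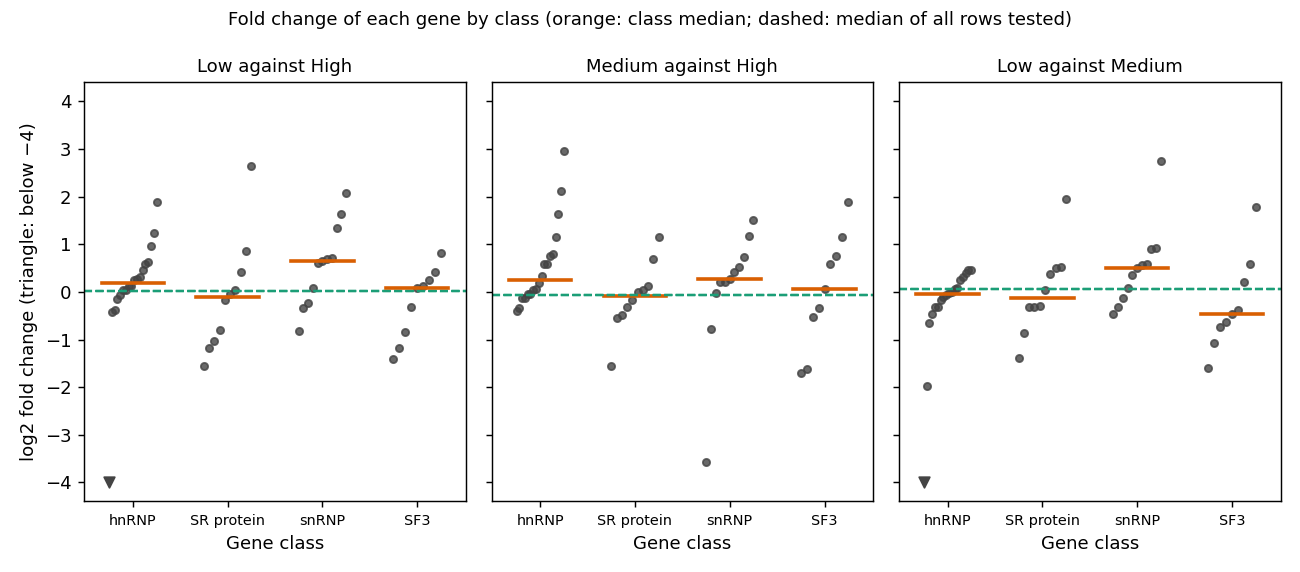
Fitted log2 fold change of each tested gene in Low against High (left), Medium against High (middle) and Low against Medium (right) by class (points), with the median of the class (orange bar) and the median of all 7729 rows (dashed line). The snRNP medians of 0.64 and 0.28 in the comparisons with High lie above those of all rows, 0.02 and -0.06, while single genes of each class spread over both sides, and the triangle marks Hnrnph2, whose value lies beyond the axis.

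The difference between Low and Medium was smaller than that of either from High for the snRNP and hnRNP sums. By medians this did not hold for the snRNP genes. Their median was 0.50 on the log2 scale in Low against Medium and 0.28 in Medium against High. The median of Low against Medium was -0.05 for hnRNP genes, -0.13 for SR genes and -0.47 for SF3 genes, beside 0.07 for all rows. Snrpd1 was lower in Low than in Medium by a log2 fold change of -0.47 ± 0.25 and Sf3b6 by -0.74 ± 0.38, without overlap of the libraries, and both had an adjusted p of 1 by edgeR. Without Medium replicate 2, which leaves Medium with 1 library that is assumed to vary like the others, Sf3b1 and Srsf4 had an adjusted p under 0.05 in this comparison by edgeR, and 194 rows of the table did, where none does with all libraries.

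The splicing genes had closer values between libraries of a film than all rows did. The median fold between the 2 libraries of a film was 1.24 in High, 1.51 in Medium and 1.48 in Low for the 48 genes, and 2.01, 2.84 and 2.03 for all rows. Among rows of at least 100 CPM it was 1.14, 1.23 and 1.44 for the splicing genes and 1.38, 1.47 and 1.42 for the rows. There were 6 genes, chosen for mention after their values were seen, that had 0 counts in 1 library and at least 50 in the other of the same film. They were Hnrnpdl, Hnrnph2 and Srsf5 in High, Sf3b4 and Srsf4 in Medium, and Hnrnpul2 in Low. Sf3b4 had 0 and 213 counts in the Medium libraries, or 0 and 34.8 CPM. Over all rows tested, 1110 did so in High, 1805 in Medium and 1155 in Low.

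Hnrnph2, an X-linked gene related to Hnrnph1, had the largest fitted change, which is no bound since both Low libraries were at 0. Its counts were 101 and 0 on High, 455 and 74 on Medium, and 0 and 0 on Low. Against a floor of 3 counts per library, Low was at least 22.3-fold lower than High and at least 96.1-fold lower than Medium, but 1 High library was itself at 0. Its adjusted p by edgeR was 0.899 in Low against High and 1 in Low against Medium. With Hnrnph2 at its bound, the hnRNP median stayed at 0.20 for Low against High and at -0.05 for Low against Medium.

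Other genes of splicing were read from the same fit with a list of 70, of which 63 were in the tables and 61 were tested. None had an adjusted p under 0.05 by edgeR in any of the 4 comparisons. In averaged Low and Medium against High, 6 did by DESeq2 and 1 by limma-voom, beside 4.85% and 0.298% of all rows. At an unadjusted p under 0.05 by edgeR, 10 of 61 (16.4%) were past the threshold in that comparison, 5 higher and 5 lower, beside 5.50% of all rows, and the median log2 fold change of the 61 was 0.03. Among rows of at least 100 CPM the share was 14.0%. The numbers were 11 (18%) in Low against High, 5 (8.2%) in Medium against High and 1 (1.64%) in Low against Medium, beside 4.27%, 4.04% and 1.51% of all rows.

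Among the higher genes were Prpf19, Lsm6, Nono and Prpf8. Prpf19, the core of the complex that helps to activate the spliceosome, was at 276 and 253 CPM on High, 685 and 716 on Medium, and 804 and 547 on Low, a log2 fold change of 1.38 ± 0.29 with an adjusted p of 0.193 by edgeR. All 4 Low and Medium libraries of Prpf19 were well above both High libraries. By log2 fold change, Lsm6 (1.34 ± 0.42), of the ring on the U6 RNA, Nono (0.92 ± 0.35), of the paraspeckles, and Prpf8 (1.51 ± 0.62), the large protein at the centre of the spliceosome, had adjusted p of 0.668, 0.801 and 0.801 by edgeR.

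Among the lower genes were Tra2b, Rbm39, Prpf6 and Sf1. Tra2b, an SR-like protein that favours exon inclusion, was at 706 and 562 CPM on High, 358 and 391 on Medium, and 312 and 335 on Low, a log2 fold change of -0.87 ± 0.27 with an adjusted p of 0.647 by edgeR. Rbm39, a splicing factor related to U2AF, was at 799 and 777 CPM on High, 496 and 551 on Medium, and 471 and 417 on Low, a log2 fold change of -0.71 ± 0.24 with an adjusted p of 0.778 by edgeR. The films Low and Medium did not overlap High for these 2 genes. By log2 fold change, Sf1 (-0.91 ± 0.38), which binds the branch point before the U2 snRNP does, and Prpf6 (-1.53 ± 0.61), of the U5 snRNP, each had an adjusted p of 0.801 by edgeR.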

How the data were processed

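RNA was measured by QuantSeq 3′ sequencing, single-end on a NextSeq, in 2 libraries of each of the High, Medium and Low films. The authors used Bowtie2 for alignment and Bedtools coverage for counting, with reads that align once or several times both counted, and deposited the counts of each library as whole numbers, not yet normalised. The submitters' notes name the build rn6, while tool versions and the gene annotation are not given in the sources used here. For RNA isolation the labels name Trizol and the methods a Ribospin kit. The tables hold 17048 rows with 16881 symbols and 0 columns of other samples. No removal of PCR duplicates is described, so counts are not independent molecules, and floors cover counting error alone. Reads shared between near-identical genes make these genes uncertain.

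All 6 libraries entered 1 fit of the 3 film means on the whole table (edgeR 4.0.16, R 4.3.3) with filterByExpr, TMM, the quasi-likelihood test and Benjamini-Hochberg adjustment over 7729 rows at a threshold of 0.05. CPM were computed after TMM. The common dispersion was 2.04, with 6.96 prior and 3 residual degrees of freedom. Intervals are 95% intervals of the fitted log2 fold change. Alternatives were DESeq2 1.42.0, limma-voom (limma 3.58.1), other scalings and filters, a replicate block, the compared groups alone, and leaving out each library. The counts at an unadjusted p, their refits and the background of rows with at least 100 CPM were added after seeing the data.

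Genes were named as the 5 (SF3, 3) of each class with the highest mean log CPM, and Hnrnpa2b1 and Srsf3. Those with an unadjusted p under 0.05 in any comparison were also named. So were up to 5 per direction whose Low and Medium libraries all lay on the same side of both High libraries. Of the other splicing genes, at most 10 with an unadjusted p under 0.05 for averaged Low and Medium against High were named, apart from some that are not reported here. The genes, classes and lists were chosen with earlier results of these data known. Promoters are from RefSeq (GRCr8), which matched all 49 symbols and gave windows for 48. RefSeq has 60 coding symbols with these prefixes, and those outside the 49 were not analysed here.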

Additional observations from a re-analysis of the deposited data

Results flagged for a closer look

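Srsf3 was the only one of the 48 genes for which both Medium libraries were above, and both Low libraries below, both High libraries. It was at 361 and 365 CPM on High, 421 and 375 on Medium, and 321 in each Low library. This was noted because the 2 films moved in opposite directions from High in every library. The difference was tested as Low against Medium, with a log2 fold change of -0.31 ± 0.33, an unadjusted p of 0.374 and an adjusted p of 1 by edgeR. Of all 7729 rows, 103 had libraries in this order.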

How the results depend on the processing

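Of the 15 values with an unadjusted p under 0.05, the direction held in all 218 refits, the unadjusted p stayed under 0.05 in 169 and did not in 49, and in 14 the adjusted p was under 0.05. With all libraries, TMM and its filter, edgeR called 0 splicing genes. DESeq2 called 1 in Low against High, 3 in Medium against High and 2 in averaged Low and Medium against High. Over all rows DESeq2 called 3.88%, 3.97% and 4.85% in these comparisons. Without a filter on low counts edgeR called 1 in Medium against High (Snrpd1) and 1 in the mean of both films (Sf3b1). Except in Low against High, the number called also changed with some libraries left out. Such fits leave a film with 1 library, so those numbers are not given here. At an unadjusted p, the 3 of Low against High became 8 with DESeq2, where 14.2% of all rows were past it. They became 1 with size factors (RLE), beside 4.17% of rows, and 9 with library sizes alone, beside 5.73%. The 5 of Medium against High became 8 with library sizes alone, beside 6.03%. The 0 of Low against Medium became 4 with DESeq2 and 4 with limma-voom, beside 10.4% and 4.92%. In that comparison 1 was past it without a filter and 1 with a mean count of at least 10, beside 2.21% and 2.3%. With only the groups compared it was 1, beside 1.41%. The 7 of the mean of both films became 4 with size factors (RLE), beside 5.45%, and 11 with library sizes alone, beside 7.06%. With library sizes alone the class medians were 0.58 (hnRNP), 0.21 (SR) and 0.85 (snRNP). With 1 library left out they ran from 0.07 to 0.43, from -0.56 to -0.05 and from 0.38 to 0.60, and from -0.26 to 0.35 for SF3. In averaged Low and Medium against High, DESeq2 called 6 of the other splicing genes and limma-voom 1, beside 4.85% and 0.298% of rows. In that comparison 2 were called without a filter and 2 with a mean count of at least 10, beside 0.711% and 0.661%. The replicate block called 1, beside 0.737%, and the number also changed with some libraries left out. By the fold rule the 14 of Low against Medium became 14 to 24 with 1 library left out, 24 without Medium replicate 2 and 23 without Low replicate 2. The cause of these changes was not tested.

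Over all rows, the calls of edgeR (4, 1, 0 and 10 in the order of the comparisons) were 300, 307, 116 and 375 with DESeq2, 16, 14, 0 and 23 with limma-voom and 34, 48, 5 and 68 without a filter. Without Medium replicate 2, 242 rows were called in the mean of both films. A fit on only the groups compared gives no value for the mean of Low and Medium. The replicate block called Sf3b1 (-1.61, adjusted p = 0.0326 by edgeR) in the mean of both films, 1 of the 48, and 30, 39, 0 and 57 rows in all. Nothing in the labels says that the replicate numbers pair the libraries. Deviations of same-numbered libraries correlated at 0.007, 0.003 and 0.007 over all rows tested. Most of these rows vary widely within a film, so this does not exclude a pairing. With 2 libraries per film, edgeR with all libraries, TMM and its filter could not tell the differences described here from the spread between libraries. For Snrpd1, Srsf1, Sf3b6 and Sf3b1 this depended on the tool or setting.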
